A study of Mus musculus with 32 samples.

Results

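At embryonic stage E13.5, the list of regions marked by trimethylated lysine 9 of histone H3 (H3K9me3) in Morc1 +/- germ cells (het) was set beside the list from Morc1 -/- germ cells (KO), and the regions present in only 1 of them were located. Peaks that met a peak of the other list over 1 bp or more were called shared, and the rest were called het-only or KO-only after their list. On the 19 autosomes, 5701 of 50191 het peaks were het-only and 11843 of 55136 KO peaks were KO-only, which makes 17544 genotype-specific peaks among the 581860 autosomal peaks of the 8 H3K9me3 lists of the series. Both groups came from testes of male mice carrying the Mvh-Venus transgene, a fluorescent reporter of germ cells. They differed by the Morc1 genotype, +/- against -/-, so the comparison group still had 1 Morc1 allele and was not wild type. The labels give 2 H3K9me3 samples (antibody Active Motif #39161) and 2 histone H3 samples for each genotype at each of E13.5, E16.5, P0 and P3, 32 samples in all. Chromatin was fixed with formaldehyde and sonicated. Only 1 list per genotype and stage was used, with no replicate, no peak height and no read depth, so no difference below has a replicate check and none carries a p-value. Percentages are given with 95% Wilson intervals, which cover counting error only and treat neighbouring peaks as independent. In a mixed population, fewer cells marked at a position and a weaker mark per cell cannot be told apart. A peak list does not measure expression, so the identity of the cells could not be checked against marker transcripts.

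H3K9me3 is the mark of constitutive heterochromatin. It is laid down by methyltransferases such as SETDB1 and SUV39H and read by HP1 proteins, and it keeps transposons, many tandem gene families and lineage-inappropriate genes silent. Male germ cells at this stage have erased most of their DNA methylation and are about to enter mitotic arrest, after which DNA methylation is restored. MORC1 is a GHKL-type ATPase of the microrchidia family that is known for transposon repression in male germ cells.

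Promoters give the closest view of genotype-specific calls at named regulatory sequence. The 250 bases before the transcription start are shown for promoters under the longest genotype-specific peaks, with 3 KO-only promoters of germline and Hox genes that were chosen after their values were seen. Sequences are from RefSeq (GRCm38.p6, the same build as the mm10 of the lists), 5′ to 3′ on the strand of the gene, with each CG dinucleotide in capitals. The first pair lay in het-only peaks, the other 6 in or at the edge of KO-only peaks. Hrk encodes a BH3-only inducer of apoptosis, Serpinb6e a serine protease inhibitor, Gadd45g a growth arrest and DNA damage protein, Pou3f3 a neural POU transcription factor and Pcdh7 a non-clustered protocadherin. Sycp3 encodes a component of the axial element of meiotic chromosomes, Tdrd1 a Tudor protein of the piRNA pathway and Hoxa10 a posterior homeobox factor.
Hrk promoter, chr5:118169514-118169763, plus strand: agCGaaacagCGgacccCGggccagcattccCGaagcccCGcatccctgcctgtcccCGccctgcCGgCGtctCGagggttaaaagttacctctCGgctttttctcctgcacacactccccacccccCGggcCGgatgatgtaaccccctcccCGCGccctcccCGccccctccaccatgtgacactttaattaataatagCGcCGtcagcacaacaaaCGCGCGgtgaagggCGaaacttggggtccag
Serpinb6e promoter, chr13:33843409-33843658, minus strand: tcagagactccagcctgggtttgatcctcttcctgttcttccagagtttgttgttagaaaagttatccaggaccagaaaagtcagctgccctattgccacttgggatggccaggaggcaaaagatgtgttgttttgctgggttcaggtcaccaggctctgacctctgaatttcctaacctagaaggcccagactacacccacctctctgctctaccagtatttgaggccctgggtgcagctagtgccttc
Gadd45g promoter, chr13:51846425-51846674, plus strand: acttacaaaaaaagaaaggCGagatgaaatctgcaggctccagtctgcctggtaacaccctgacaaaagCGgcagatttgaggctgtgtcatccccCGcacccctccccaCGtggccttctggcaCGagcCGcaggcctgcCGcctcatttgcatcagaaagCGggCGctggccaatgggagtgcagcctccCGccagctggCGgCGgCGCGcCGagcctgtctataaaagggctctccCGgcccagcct
Pou3f3 promoter, chr1:42695518-42695767, plus strand: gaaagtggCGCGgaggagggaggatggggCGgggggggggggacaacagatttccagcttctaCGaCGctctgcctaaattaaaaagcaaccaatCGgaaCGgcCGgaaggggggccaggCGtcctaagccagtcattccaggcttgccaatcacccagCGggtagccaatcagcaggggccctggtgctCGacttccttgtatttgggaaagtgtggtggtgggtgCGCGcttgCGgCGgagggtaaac
Pcdh7 promoter, chr5:57717831-57718080, plus strand: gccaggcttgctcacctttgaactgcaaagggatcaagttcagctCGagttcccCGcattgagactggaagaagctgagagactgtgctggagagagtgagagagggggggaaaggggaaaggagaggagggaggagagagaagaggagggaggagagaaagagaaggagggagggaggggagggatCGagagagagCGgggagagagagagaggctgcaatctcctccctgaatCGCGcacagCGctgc
Sycp3 promoter, chr10:88459337-88459586, plus strand: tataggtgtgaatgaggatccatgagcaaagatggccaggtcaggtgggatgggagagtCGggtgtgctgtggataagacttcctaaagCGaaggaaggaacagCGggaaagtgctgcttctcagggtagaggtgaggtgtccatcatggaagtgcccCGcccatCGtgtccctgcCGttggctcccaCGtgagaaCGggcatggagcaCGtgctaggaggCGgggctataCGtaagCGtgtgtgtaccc
Tdrd1 promoter, chr19:56825959-56826208, plus strand: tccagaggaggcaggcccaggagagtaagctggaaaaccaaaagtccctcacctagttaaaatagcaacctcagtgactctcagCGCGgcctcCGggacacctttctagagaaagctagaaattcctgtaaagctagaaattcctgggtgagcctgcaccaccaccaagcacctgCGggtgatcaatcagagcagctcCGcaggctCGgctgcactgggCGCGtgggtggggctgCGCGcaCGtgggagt
Hoxa10 promoter, chr6:52234940-52235189, minus strand: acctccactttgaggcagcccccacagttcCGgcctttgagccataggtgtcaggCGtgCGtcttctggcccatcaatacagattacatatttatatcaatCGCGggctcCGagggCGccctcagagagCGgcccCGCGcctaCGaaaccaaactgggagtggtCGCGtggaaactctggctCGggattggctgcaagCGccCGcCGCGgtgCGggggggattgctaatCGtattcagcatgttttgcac
The longest het-only promoter peak, at Hmx3, is not shown because it started at the transcription start and covered none of the 250 bases before it, which hold 31 CG dinucleotides. The stretches shown ranged from 0 CG dinucleotides in Serpinb6e to 21 in Hrk, with 20 in Hoxa10, 16 in Gadd45g, 15 in Pou3f3, 12 in Sycp3, 11 in Tdrd1 and 7 in Pcdh7. The Hrk sequence lay inside a het-only peak of 3.71 kb (chr5:118168585-118172289) that no other list called. The Serpinb6e peak of 2.46 kb (chr13:33841230-33843686) was called again in both E16.5 lists, over 2.41 kb in het and 2.46 kb in KO, and in both P3 lists. The Gadd45g sequence lay across the edge of a KO-only peak of 8.35 kb (chr13:51846606-51854954), the longest of the KO-only peaks that touched a promoter window of the RefSeq table. A longer peak at Gata3, described below, did not touch the window of that gene in the table. The Pou3f3 peak measured 6.12 kb, the Pcdh7 peak 5.94 kb and the Hoxa10 peak 3.60 kb. These 3 and the Gadd45g peak had no base pair called in het at E13.5 or in any of the 6 later lists.

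Genotype-specific peaks were 11.4% of the het list (11.1 to 11.6%) and 21.5% of the KO list (21.1 to 21.8%). Those shares are over all autosomal peaks. Gene groups below are set beside the shares inside protein-coding genes, which were higher, at 15.1% het-only and 27.3% KO-only. In covered length, het-only peaks made up 6.69 Mb, or 4.19% of the 159.7 Mb of the het list, and KO-only peaks 15.3 Mb, or 8.39% of the 181.9 Mb of the KO list. The KO list thus held 1.10 times as many peaks as the het list and 2.08 times as many genotype-specific ones. On each of the 19 autosomes the KO-only share was the higher of the pair. The het-only share ran from 9.89% on chromosome 16 to 13.45% on chromosome 8, and the KO-only share from 18.8% on chromosome 1 to 24.8% on chromosome 11. The gap changed with the peaks that were kept. For equal peak numbers, the KO list was reduced to its longest peaks, as many as in the het list. The shares were then 15.0% het-only and 17.4% KO-only, a ratio of 1.17. That trim removed short KO peaks alone, and 62.8% of the KO peaks of the shortest length were KO-only. Removing KO peaks alone cannot lower the het-only share, so whether list length accounts for the gap was not tested. Leaving the shortest peaks out of both lists gave 7.80% het-only and 20.5% KO-only, a ratio of 2.63.

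The genotype-specific peaks were the short ones. The shortest length in both lists was 1001 bp, and it made up 72.5% of het-only (71.3 to 73.7%) and 58.8% of KO-only peaks (57.9 to 59.7%), against 16.1% of the shared het and 9.54% of the shared KO peaks. Of the 11282 het peaks at that length 36.6% had no KO counterpart, and of the 11094 KO peaks 62.8% had no het counterpart. The share dropped with every step in length: among peaks of 2 to 3 kb it was 1.52% in het and 5.05% in KO, and among peaks of 10 kb or more it was 0.0448% in het (1 of 2231) and 0.0767% in KO (2 of 2608). Only 75 het-only and 285 KO-only peaks reached 3 kb. Nearly all long peaks therefore met the other list over at least 1 bp, which a longer peak does more easily. Shared did not mean called in full. Of 44490 shared het peaks 15935 were covered over their whole length by the KO list. Of 43293 shared KO peaks 6245 were so covered by the het list. The KO-only share was the higher in each of the 6 length classes.

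**Figure D1:**
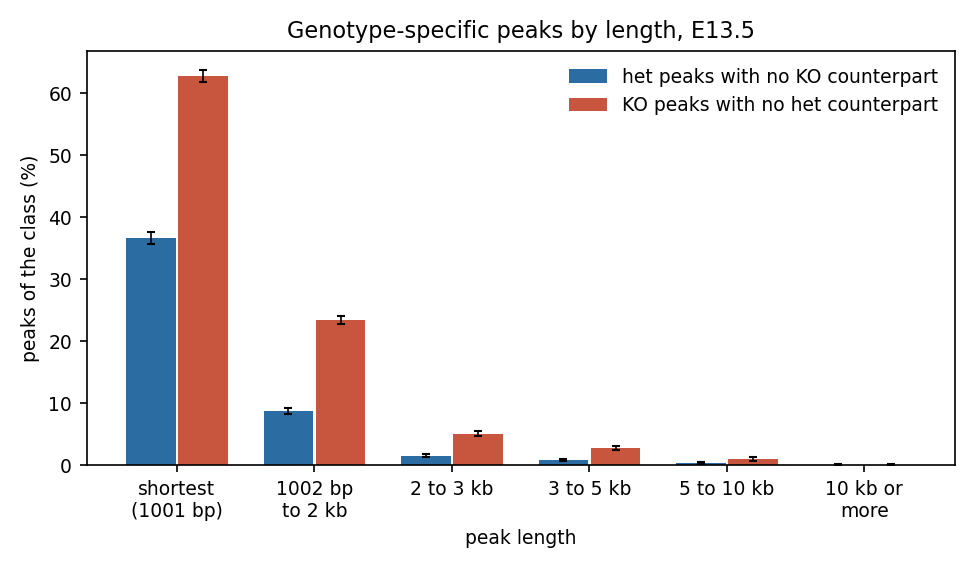
Share of peaks without a counterpart in the other genotype (y axis, percent of the peaks of the class) by peak length (x axis) in the het and KO lists at E13.5; error bars are 95% Wilson intervals for counting error. The bars stand at 36.6% and 62.8% for peaks of 1001 bp and near 0 from 5 kb on.

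The rule of 1 bp left few peaks close to the line. Among shared peaks, 55 het and 46 KO peaks had less than 100 bp in common with the other list, and 45 peaks in each direction missed a counterpart by less than 100 bp. A peak of the other list lay within 1 kb of 396 het-only peaks (6.95%) and of 377 KO-only peaks (3.18%). The median distance to the nearest peak of the other list was 10.4 kb for het-only and 13.3 kb for KO-only peaks. Shared peaks mostly met 1 partner: 464 shared het peaks (1.04%) and 1456 shared KO peaks (3.36%) touched more than 1 peak of the other list.

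Genotype-specific peaks lay farther from shared peaks than shared peaks lay from each other. The median distance to the nearest shared peak of the same list was 15.5 kb for het-only and 16.4 kb for KO-only peaks, against 9.90 kb and 10.4 kb between shared peaks. Within 10 kb of a shared peak were 37.7% of het-only (36.4 to 38.9%) and 37.0% of KO-only peaks (36.2 to 37.9%), against 50.3% and 49.1% of shared peaks. Much of that gap went with length: among peaks of 1001 bp the medians were 16.3 kb for het-only and 17.0 kb for KO-only peaks, against 14.3 kb and 14.9 kb for shared peaks. Both directions had nearly the same distribution, although the KO list had 2.08 times as many such peaks.

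**Figure D2:**
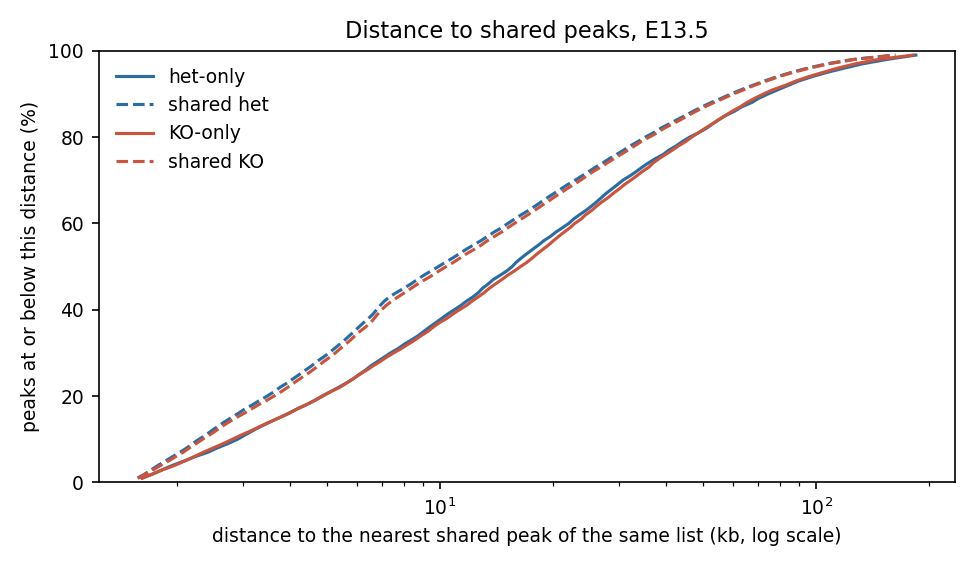
Cumulative share of peaks (y axis, percent) by distance to the nearest shared peak of the same list (x axis, kb, log scale) for het-only, KO-only and shared peaks at E13.5. The het-only and KO-only curves run together, to the right of those of shared peaks, with medians of 15.5, 16.4, 9.90 and 10.4 kb.

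Of the genotype-specific peaks, 4112 of 5701 het-only and 6484 of 11843 KO-only peaks had no neighbour of their kind along the list. Counted as runs, 85.3% of the het-only runs (84.3 to 86.3%) and 74.3% of the KO-only runs (73.4 to 75.2%) held a single peak. The share of single peaks depends on how common genotype-specific peaks are in a list, and a random order was not set beside it. There were 136 het-only and 609 KO-only runs of 3 or more peaks. The longest het-only run had 7 peaks over 479 kb and included Cdh26, a cadherin gene. The longest KO-only runs had 8 peaks each. The first covered 427 kb of chromosome 2 with Gata3, a zinc finger transcription factor of T cell and kidney development, together with Taf3, Atp5c1, Kin, Itih2 and Itih5. Another covered 320 kb of chromosome 4 with Rad23b, up to the neighbour Klf4, a reprogramming factor. The last covered 835 kb of chromosome 4 from Faah to Hpdl, among them Rad54l, Nasp and Mutyh, which act in DNA repair or histone supply.

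The 5 longest het-only peaks lay outside genes, 4 of them far from any gene and 1 close to Kcnj3. The longest measured 10049 bp (chr15:69766656-69776704), between Khdrbs3 and Fam135b, 665 kb from the former. It was called over its whole length in het at E16.5 and over 3.89 kb in KO. The others measured 9.34 kb between Dnah5 and Ctnnd2, 8.59 kb at a distance of 3.01 kb from the potassium channel gene Kcnj3, and 7.29 and 7.11 kb between Igfbp7 and Adgrl3. Each of these was called again in both E16.5 lists, so the E13.5 KO list lacked positions that both genotypes had at the next stage. The last also lay 12 bp from a KO peak and is in that respect a border case of the rule.

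Of the 5 longest KO-only peaks 4 lay far from genes as well. A peak of 18.1 kb and one of 10.7 kb lay side by side between Tenm3 and Aga on chromosome 8 (chr8:50753751-50771867 and chr8:50775736-50786385), and het peaks came within 1.80 and 1.07 kb of them. Both were covered over their full length in both E16.5 lists. Peaks of 9.88 kb between Pcmtd1 and Sntg1 and of 9.33 kb between Tle1 and Aldoart1 were also called in both E16.5 lists. The other was the Gata3 peak of 8.43 kb (chr2:9881813-9890239), 206 kb from the nearest shared peak of its list. It had 0 kb called in each of the 7 other lists.

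The genotype-specific peaks farthest from any shared peak were short and lay among duplicated genes or near gene ends. KO-only examples were a 1001 bp peak in Gm3248 on chromosome 14, 1966 kb from a shared peak, and a pair beside the Pramel genes on chromosome 5 (Pramel40, Pramel41 and AA792892) at 662 and 636 kb. The het-only counterparts lay near Pramel45 at 654 kb, between Ccl21a and Fam205a1 at 430 kb, and 6.20 kb from Rph3al at 415 kb. The Pramel genes are near-identical copies among which reads can be split, and the calls beside them are uncertain.

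Relative to genes, peaks of both directions lay in gene bodies more often than shared peaks did. The share of the genome that lies in genes was not set beside these values. The midpoint lay in a protein-coding gene for 35.2% of het-only (33.9 to 36.4%) and 35.4% of KO-only peaks (34.5 to 36.2%), against 25.4% and 25.7% of shared peaks. At 1001 bp the values were 35.7% and 35.3% against 30.9% and 31.1%. Put the other way, 15.1% of the 13305 het peaks inside genes were het-only and 27.3% of the 15332 KO peaks inside genes were KO-only. The directions differed in how far the rest lay from genes. More than 100 kb from any gene were 33.1% of het-only (31.9 to 34.3%) and 26.9% of KO-only peaks (26.1 to 27.7%), against 36.5% and 36.1% of shared peaks. The median distance of intergenic calls to the nearest gene was 105 kb for het-only and 63.7 kb for KO-only peaks.

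Over peaks of all lengths, the KO-only share was higher in gene-rich windows, and the het-only share changed little. In 1-Mb windows without a gene, 16.1% of KO peaks were KO-only (15.4 to 17.0%), and in windows with 21 or more genes 25.9% (24.8 to 27.2%), with each class in between higher than the last. The het-only share was 11.03% (10.4 to 11.7%) in the first class and 11.4% (10.5 to 12.4%) in the last. With equal peak numbers the KO-only shares were 13.0% and 21.5% and the het-only shares 13.9% and 15.4%, so that the het-only share was the higher of the pair in windows without genes. Among peaks of 1001 bp the rise was smaller: the KO-only share was 60.6% (57.8 to 63.2%) in windows without a gene, 59.3% in the next class and 66.5% (63.8 to 69.1%) in the last. The het-only share at that length was lower in gene-rich windows, at 33.5% (30.8 to 36.3%) against 41.4% (38.9 to 44.0%) without a gene.

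Of 20661 autosomal protein-coding genes, 1619 (7.84%) held the midpoint of a het-only peak and 2909 (14.1%) that of a KO-only peak. Both kinds occurred in 716 genes, 44.2% of the former and 24.6% of the latter. Gene length went with these counts: among genes of 500 kb or more 75.8% held a het-only and 87.4% a KO-only peak, and below 10 kb 1.36% and 3.77%. Per Mb of gene, KO-only peaks were densest in the shortest genes, at 9.21 per Mb below 10 kb and 3.61 per Mb at 500 kb or more, and het-only peaks had 3.28 and 2.205 per Mb. Short genes were thus rarely hit but held more KO-only calls for their length.

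The genes with the most genotype-specific peaks in either direction were 180.1 to 1643 kb long. Csmd1, a complement-control adhesion gene of 1643 kb, held 20 het-only and 24 KO-only peaks next to 49 shared het peaks, and its called length was 342 kb in het and 363 kb in KO. Dpp10, a potassium channel subunit gene, held 13 and 20 with 236 and 237 kb called. In both, the calls differed in place more than in amount. Khdrbs2, an RNA-binding protein gene, leaned towards het with 12 het-only and 6 KO-only peaks, as did L3mbtl4 with 8 and 6. Fstl5 held 8 and 14, and Cdh13, a GPI-anchored cadherin gene, 7 and 9.

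Other long genes held more KO-only peaks per het-only peak than the 2.08 of the whole list. Alk, a receptor tyrosine kinase gene, held 4 het-only and 19 KO-only peaks, and its called length at E13.5 was 66.9 kb in het against 155 kb in KO. At E16.5 the order was reversed, with 102 against 78.0 kb. After birth KO had the longer called length again, 135.5 against 87.8 kb at P0 and 156 against 105 kb at P3. Nrg3, a neuregulin gene, held 5 and 13, Wwox, an oxidoreductase gene at a common fragile site, 4 and 10, and Galnt17, a glycosyltransferase gene, 2 and 10. Pde4d, a cAMP phosphodiesterase gene, held 0 and 12, Mtus2, a microtubule-associated protein gene, 0 and 10, and Asic2, an acid-sensing channel gene, 1 and 10. In Pde4d the E13.5 lists covered 37.2 kb in het and 57.3 kb in KO, and all 6 later lists covered more than either.

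The Morc1 gene itself (chr16:48431237-48630905) held 2 het-only peaks of 1001 bp each and 1 KO-only peak of 1.56 kb, and no shared peak. The later het lists covered 1.62, 3.47 and 3.21 kb of it in the order of the stages, and the later KO lists 0, 0 and 1.00 kb. The lists say nothing of whether the allele is deleted.

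Hox genes, which encode the homeobox factors that pattern the body axis and are normally held silent in germ cells by Polycomb marks, had KO-only peaks more often than all genes did. Of 39 Hox genes, 15 (38.5%) held a KO-only and 3 a het-only peak, against 14.1% and 7.84% of all genes. Across the 4 clusters, 34 of 55 KO peaks were KO-only and 2 of 23 het peaks were het-only. Called length over the 492 kb of the clusters was 29.8 kb in het and 124 kb in KO, a ratio of 4.18, against a ratio of 1.185 over all protein-coding genes. Each cluster went the same way: Hoxa had 9.02 kb in het and 36.6 kb in KO, Hoxb 9.23 and 41.8 kb, Hoxc 5.62 and 25.3 kb and Hoxd 5.89 and 20.7 kb. In the 6 later lists all 4 clusters together had between 7.49 and 11.5 kb called. The KO list at E13.5 thus had the most and the het list at E13.5 the next most of the 8 lists. With equal peak numbers the clusters still held 30 KO-only peaks and 117 kb in KO, and without the shortest peaks 27 KO-only peaks and 105 kb in KO against 18.7 kb in het.

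Of the 34 KO-only peaks in the clusters, 20 had their midpoint in a Hox gene, and others lay between the genes or touched a pair of them. The longest measured 5.62 kb at Hoxb9, 4.75 kb over Hoxb8 and Hoxb7, 4.37 kb at Hoxc12, 4.06 kb at Hoxc11 and 3.60 kb at Hoxa10. Hoxb3 held 5 KO-only peaks of 7.88 kb together and 1 het-only peak. In Hoxb9, Hoxa10, Hoxc11, Hoxb13, Hoxd12 and Hoxd13 the het list had 0 kb. Both het-only peaks were 1001 bp long, one across Hoxa3 and Hoxa5 and the other across Hoxb3 and Hoxb4. Of the 20 KO-only peaks with a midpoint in a Hox gene, 0 were called in any later list, which allows a share of up to 15.0% by the limit of 3 counts and of 16.1% by the Wilson interval, against 57.8% of all KO-only peaks inside genes.

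**Figure D3:**
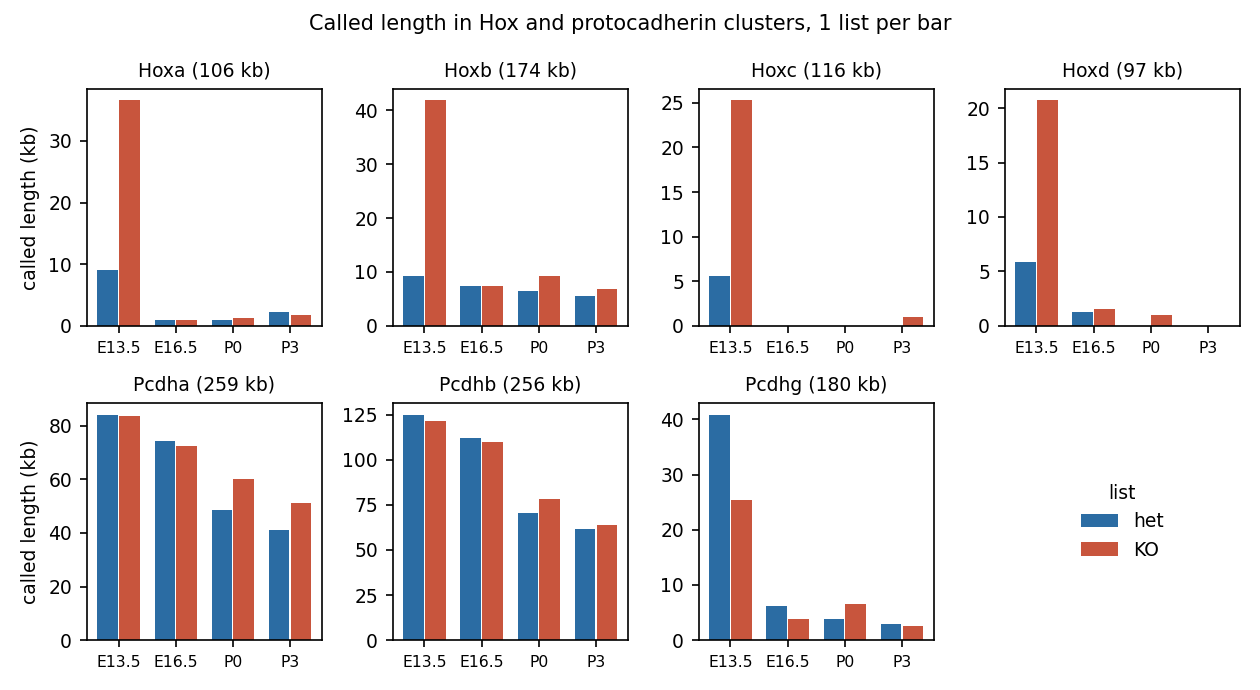
Called length (y axis, kb) in 4 Hox and 3 protocadherin clusters in each of the 8 H3K9me3 lists, by stage (x axis) and genotype; each bar is 1 list without replicate, and the y axes differ between panels. The 4 Hox clusters together hold 124 kb in the KO list at E13.5 and at most 29.8 kb in any other list, and the Pcdhg cluster holds 40.9 kb in the het and 25.4 kb in the KO list at E13.5.

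The clustered protocadherins, neuronal adhesion genes that share constant exons and are known targets of H3K9me3, went the other way in 1 of their 3 clusters. In the Pcdhg cluster on chromosome 18, 7 het peaks were het-only and no KO peak was KO-only, and the called length was 40.9 kb in het and 25.4 kb in KO. The Pcdha cluster had 84.2 and 83.7 kb and the Pcdhb cluster 125 and 122 kb. Because the gene models overlap, 29 of 57 protocadherin genes held a het-only peak although only 11 distinct het-only peaks were involved, and 4 held one of 3 KO-only peaks. The same peaks put the overlapping models Gm37013, Gm38666 and Gm38667 among the genes with the most het-only peaks, at 11, 10 and 10. Pcdhga1 to Pcdhga4, Pcdhgb1 and Pcdhgb2 held 5 to 7 each. Little of Pcdhg was called later: 6.24 kb at E16.5 in het, 3.81 kb in KO, and at most 6.64 kb after birth.

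A wider set of developmental transcription factor families (Pax, Sox, Fox, Gata, Lhx and related), chosen after values had been seen, was read for the same feature. Of 157 such genes, 57 (36.3%) held a KO-only and 20 (12.7%) a het-only peak, against 14.1% and 7.84% of all genes. At promoters, 11 of the 107 with a matched window (10.3%) were touched by a KO-only peak, against 1.46% of all genes, and 5 (4.67%) by a het-only peak, against 0.401%. The het-only ones were Pax2, Pax7, Sox21, Tbx1 and Tbx20, so the promoters of this set stood above the share over all genes in both directions. Of the 182 KO peaks in them 45.6% were KO-only (38.5 to 52.9%), against 27.3% over all genes, and of the 129 het peaks 19.4% were het-only (13.49 to 27.0%), against 15.1%. With equal peak numbers the KO-only share was 37.1%. Pax2, a kidney and ear factor, held 6 KO-only and 2 het-only peaks, and its called length was 3.45 kb in het and 13.7 kb in KO. Gata3 had 1.00 and 8.84 kb, Lhx4 1.25 and 7.60 kb, Lhx6 1.00 and 6.88 kb and Lhx2 2.002 and 7.28 kb. Pou3f3, a neural factor, had 0 kb in het, 4.12 kb in KO and 0 kb in all later lists. Members with more in het included Sox5 with 66.8 kb in het and 64.1 kb in KO, Foxp2 with 4.19 and 1.00 kb, Tbx1 with 1.51 and 0 kb, Gata6 with 1.27 and 1.00 kb, and Foxj2 with 1.00 and 0 kb. Among the 83 KO-only peaks in these genes, 18 (21.7%, 14.2 to 31.7%) were called in any later list, against 57.8% of all KO-only peaks inside genes.

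The Wnt genes, which encode secreted signalling ligands and were also chosen after values had been seen, had KO-only peaks in 10 of 19 (52.6%, against 14.1% of all genes) and het-only peaks in 2, Wnt3 and Wnt5b (10.5%, against 7.84%). Of the 19 KO peaks in them 63.2% were KO-only (41.04 to 80.9%), and of the 9 het peaks 22.2% were het-only (6.32 to 54.7%). Wnt1 had 0 kb in het and 1.93 kb in KO, Wnt3a 0 and 2.31 kb, Wnt7b 0 and 1.74 kb, and Wnt6 0.794 and 2.44 kb. Of the 12 KO-only peaks in Wnt genes 1 was called in a later list.

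**Figure D4:**
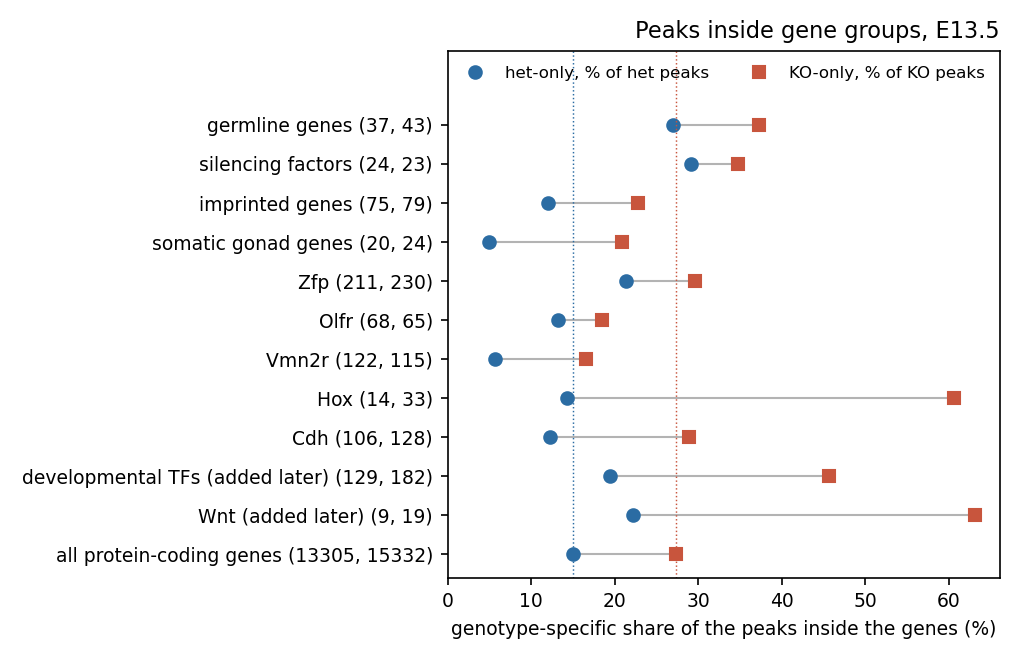
Share of the peaks inside each gene group that was genotype-specific (x axis, percent), het-only among het peaks (circles) and KO-only among KO peaks (squares); numbers in brackets are the het and KO peaks with a midpoint in the group, and dotted lines mark all protein-coding genes (15.1% and 27.3%). Among the groups drawn, Hox genes, developmental transcription factors and Wnt genes have the highest KO-only shares, and the last 2 were chosen after values had been seen.

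Genes of somatic gonadal cells and of blood and vessel cells, the other cells a testis preparation could hold, had KO-only peaks in 5 of 26 (19.2%, against 14.1% of all genes) and a het-only peak in 1 (3.85%, against 7.84%), the endothelial receptor gene Kdr. Of the 24 KO peaks in them 20.8% were KO-only (9.24 to 40.5%), a share below the 27.3% over all genes. The KO-only ones were Sox9, the Sertoli cell determinant, with 0 kb in het and 3.54 kb in KO, Gata4 with 3.72 and 9.29 kb, Pdgfra with 1.80 and 5.13 kb, Tcf21 with 0 and 1.00 kb and Myh11 with 1.90 and 2.79 kb. Over the whole list 37.4 kb were called in het and 57.8 kb in KO, a ratio of 1.55 against 1.185 over all genes. The called length was greater in KO in 12 of the 26 genes and greater in het in Kdr, and 13 had 0 kb in both lists, among them Amh, Nr5a1, Insl3, Star and Cdh5. The called length of this list was thus higher in KO alongside that of the Hox genes, and the part of other cells in either result was not tested.

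Germline genes had unique calls in both directions. Of 53, 10 (18.9%) held a het-only and 11 (20.8%) a KO-only peak, against 7.84% and 14.1% of all genes. Of 37 het peaks in them 10 (27.0%) were het-only and of 43 KO peaks 16 (37.2%) were KO-only, both above the values over all genes, with wide intervals of 15.4 to 43.0% and 24.4 to 52.1%. Het-only calls were mostly of 1001 bp, as in Prdm1 and Prdm14, the specifiers of primordial germ cells, Ret, a receptor of spermatogonia, and Tex15, which acts in transposon silencing. Asz1 of the piRNA pathway had 5.23 kb in het and 3.83 kb in KO, and Brdt, a testis bromodomain gene, 1.30 and 0.696 kb. The most KO-only length was in Tdrd9 and Tdrd6, both Tudor genes, and Tex14, a gene of the germ cell bridge. Tdrd9 held 3 KO-only peaks and 4.27 kb in het against 8.92 kb in KO, Tdrd6 0 and 3.41 kb, and Tex14 2.89 and 4.84 kb. Gfra1 and Zbtb16, both genes of spermatogonial stem cells, came next with 2.36 and 2.03 kb of KO-only calls. Tdrd9, Tex14, Gfra1 and Zbtb16 also held a het-only peak each. Mov10l1, a helicase gene of the piRNA pathway, had 1.38 kb of KO-only calls, and the Tudor genes Tdrd5 and Tdrd1 had 1.00 and 0.804 kb.

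Silencing factors had het-only and KO-only peaks in 6 of 33 genes each (18.2%), against 7.84% and 14.1% of all genes. Of the 24 het peaks in them 29.2% were het-only (14.9 to 49.2%) and of the 23 KO peaks 34.8% were KO-only (18.8 to 55.1%), against 15.1% and 27.3%. Setdb1, Morc2a, Dnmt3b and Pphln1, which encode an H3K9 methyltransferase, a MORC ATPase, a DNA methyltransferase and a HUSH complex subunit, held a het-only peak and no KO-only peak. Smchd1, Mphosph8, Dnmt1 and Kdm4c held KO-only peaks alone, and Dnmt3a and Morc1 held both. Smchd1 had 7.52 kb in het and 10.2 kb in KO, and the other genes named here except Pphln1 had at most 2.32 kb in either list.

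Imprinted genes had KO-only peaks in 12 of 39 (30.8%) and het-only peaks in 7 (17.9%), against 14.1% and 7.84% of all genes. Kcnq1 held 5 KO-only and 1 het-only peak, with 63.9 kb called in het and 72.5 kb in KO, and Snrpn 3 and 2, with 223 and 250 kb. Grb10, Peg3 and Inpp5f held both kinds, and Peg3 had more in het, at 4.67 against 2.74 kb. The small genes Dio3, Ndn and Phlda2 had 0 kb in het and 1.39, 1.14 and 1.00 kb in KO, and 0 kb in every later list. Of 75 het peaks in imprinted genes 9 were het-only and of 79 KO peaks 18 (22.8%) were KO-only, below the 15.1% and 27.3% inside all genes and slightly above the 11.4% and 21.5% of all autosomal peaks.

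Tandem gene families differed among themselves. They are set beside 7.84% of all genes with a het-only and 14.1% with a KO-only peak. Of 388 Zfp genes 42 (10.8%) held a het-only and 56 (14.4%) a KO-only peak. Of the het peaks in Zfp genes 21.3% were het-only (16.3 to 27.3%) and of the KO peaks 29.6% were KO-only (24.04 to 35.8%), against 15.1% and 27.3% inside all genes. Chemoreceptor genes had fewer per gene, but shares per gene also went with gene length. Olfactory receptor and Vmn1r genes have median lengths of 0.95 and 0.924 kb. Of all genes below 10 kb, 1.36% held a het-only and 3.77% a KO-only peak. Of 1104 olfactory receptor genes 8 (0.725%) and 12 (1.09%) held one, of 230 Vmn1r genes 0 and 2 (0.870%), and of 122 Vmn2r genes 7 (5.74%) and 14 (11.5%), with 3 KO-only peaks in Vmn2r75. Of the het peaks in olfactory receptor genes 13.2% were het-only (7.12 to 23.3%), and of the KO peaks 18.5% were KO-only (10.9 to 29.6%). These intervals include the 15.1% and 27.3% inside all genes. In Vmn2r genes 5.74% of het and 16.52% of KO peaks were genotype-specific, both below all genes. Among genes with symbols beginning Cyp2, 12 of 56 (21.4%) held a KO-only and 1 (1.79%) a het-only peak, and these included the retinoic acid hydroxylase genes Cyp26a1 and Cyp26c1 on the KO side and Cyp26b1, known for keeping retinoic acid low in the fetal testis, on the het side. Cyp26a1 had 0 kb in het and 1.98 kb in KO, and Cyp26b1 1.00 and 0 kb. Genes with symbols beginning Cdh, most of them cadherins, have a median length of 148 kb and held KO-only peaks in 12 of 23 (52.2%) and het-only peaks in 7 (30.4%). Of all genes of 100 to 300 kb, 45.4% held a KO-only and 25.4% a het-only peak. Of the KO peaks in Cdh genes 28.9% were KO-only (21.8 to 37.3%), and of the het peaks 12.3% were het-only (7.31 to 19.9%). Both intervals include the values inside all genes. Serpin genes had KO-only and het-only peaks in 5 (8.06%) and 2 (3.23%) of 62, Klr genes in 4 (13.8%) and 3 (10.3%) of 29, and Ceacam and Psg genes in 5 (17.9%) and 0 of 28. Genes with symbols beginning Krt, which encode keratins and keratin-associated proteins, had them in 3 (2.75%) and 4 (3.67%) of 109. The few peaks there were largely genotype-specific, 4 of 6 het and 3 of 6 KO peaks. Prolactin genes had 1 and 0 of 25, defensins 1 and 0 of 71, and Slitrk genes 1 and 0 of 4. The 22 Ugt genes had 8 and 9, nearly all through the overlapping Ugt1a models, with 2 KO-only and 2 het-only peaks in the whole list.

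At promoters, the windows from 250 bases before to 50 bases after the start were matched for 16456 genes. A het-only peak touched the window of 66 genes (0.401%) and a KO-only peak that of 241 (1.46%). The 5 genes with the longest het-only promoter peaks were Hmx3, Hrk, Serpinb6e, Cracd and Drd4, and the 5 with the longest KO-only ones Gadd45g, Pou3f3, Pcdh7, Onecut1 and Pax2. Hmx3 and Hmx2, neighbouring homeobox genes of the inner ear on chromosome 7, split by genotype: a het-only peak of 4.15 kb started at the Hmx3 transcription start (chr7:131542963-131547108), and a KO-only peak of 4.76 kb lay at Hmx2 (chr7:131552142-131556900). Neither was called in a later list. Pax2 had a het-only peak of 1001 bp at 1 start and a KO-only peak of 5.40 kb at another.

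The promoters under KO-only peaks were CG-rich. The median number of CG dinucleotides was 17 in the 264 windows touched by KO-only peaks, 10 in the 71 touched by het-only peaks and 3 in windows touched by shared peaks, against 14 over all 20084 windows. At least 10 were present in 73.1% of KO-only windows (67.5 to 78.1%) and 54.9% of het-only windows (43.4 to 66.0%), against 27.3% and 32.2% of windows under shared het and KO peaks and 57.9% of all windows. Shared peaks were thus at CG-poor starts, and genotype-specific ones at starts closer to the average. The letters CACGTG read the same on both strands and are bound by basic helix-loop-helix factors. They were in 29 of 264 KO-only (10.98%), 3 of 71 het-only (4.23%) and 7.89% of all windows. In the same order, TGCCGC was in 17.4%, 9.86% and 14.2%, and TATAAA in 16.3%, 16.9% and 12.7%. No interval was computed for these shares, and a difference from all windows was not tested. Among KO-only windows CACGTG occurred, with others, at Sycp3, Tdrd1, Tdrd9, Gadd45g and Onecut1. Few of these promoters were called again: of the 264 KO-only windows 13 to 27 were touched in each later list, and of the 71 het-only windows 11 to 16.

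The gene groups differed in how many promoters KO-only peaks touched, against 1.46% of all genes. Above that share were 5 of 42 germline genes with a window (11.9%: Gfra1, Rpl10l, Sycp3, Tdrd1 and Tdrd9), 4 of 31 imprinted genes (12.9%: Dio3, Igf2, Ndn and Phlda2), 4 of 22 Hox genes (18.2%: Hoxa10, Hoxb1, Hoxd12 and Hoxd13) and 1 of 11 somatic genes (9.09%: Pdgfra). The highest share was in Wnt genes, with 4 of 15 (26.7%), and developmental transcription factor genes had 11 of 107 (10.3%). Both of these groups were chosen after values had been seen. Less far above it were Krt genes with 2 of 87, defensins with 1 of 45, Cyp2 genes with 1 of 47 and Vmn2r genes with 2 of 115. Groups below it included silencing factors with 0 of 30, Zfp genes with 3 of 325 (0.923%), olfactory receptors with 10 of 938 (1.07%) and Serpin genes with 0 of 53. A het-only peak touched the promoter of 0 of 42 germline, 0 of 22 Hox and 0 of 11 somatic genes, against 0.401% of all genes. Among imprinted genes it was 1 of 31 (3.23%), the zinc finger gene Plagl1. These groups are too small to set a count of 0 apart from the share over all genes. Other groups ranged from 0 of 115 Vmn2r genes to 5 of 107 developmental transcription factor genes (4.67%). The Sycp3 peak was 1001 bp long (chr10:88459061-88460061), the Tdrd1 peak 1.36 kb (chr19:56825619-56826974) and the Tdrd9 peak 2.83 kb (chr12:111970894-111973724). None of these 3 positions was called in any later list.

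Of 919 miRNA hairpins, 3 (0.326%) were touched by a het-only and 8 (0.871%) by a KO-only peak, against 36 (3.92%) and 40 (4.35%) touched by shared het and KO peaks. Of all autosomal peaks, 11.4% in het and 21.5% in KO were genotype-specific. By these counts hairpins did not stand above those shares in either direction. The mature sequences of hairpins whose peaks also bear on the groups above are shown as RefSeq gives them, with the seed (bases 2 to 8) in capitals.
mmu-miR-9-5p: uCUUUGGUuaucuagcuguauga
mmu-miR-9-3p: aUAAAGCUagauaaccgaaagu
mmu-miR-291b-3p: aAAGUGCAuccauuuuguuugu
mmu-miR-293-3p: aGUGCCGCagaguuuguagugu
mmu-miR-196a-5p: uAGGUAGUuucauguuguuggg
The 14 mature sequences of the 8 KO-only hairpins had 14 different seeds, so no seed family was shared. Mir9-1, the source of a neural miRNA, lay with Mir3093 and the opposite-strand hairpin Gm25641 under 1 KO-only peak of 2.37 kb (chr3:88214758-88217129). Mir291b and Mir293, members of a cluster expressed in pluripotent cells, were touched by 1 peak of 1001 bp (chr7:3219508-3220508). Mir196a-2, whose miRNA is known to target Hox transcripts, was touched by a peak of 1001 bp inside the Hoxc cluster (chr15:102972386-102973386). None of these 3 peaks was called in any other list. Of the het-only hairpins, Mir1963 and Mir680-3 were called in later lists and Mir6923 in none.

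Outside genes, the interval with the most het-only peaks lay between Khdrbs3 and Fam135b on chromosome 15. In it 42 het peaks (36.8%) were het-only and 11 KO peaks (13.1%) KO-only, against 11.4% and 21.5% of all autosomal peaks. The called length in this interval of 2337 kb was 397 kb in the het and 284 kb in the KO list. At E16.5 het again had more, 824 against 547 kb, and after birth KO had more, 524 against 506 kb at P0 and 593 against 516 kb at P3. The 1-Mb window with the most het-only peaks was here (chr15:70000001-71000000), where 22 of 54 het peaks were het-only. The next were a window holding Naaladl2 on chromosome 3 with 21 of 73 and one around Khdrbs2 on chromosome 1 with 18 of 66, against a median of 2 of 18.

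Between Tmprss15 and Ncam2 on chromosome 16 the order was the opposite: 4 het peaks (4.598%) were het-only and 32 KO peaks (30.5%) KO-only, with 347 kb called in het against 531 kb in KO. The same interval at E16.5 had 1080 kb in het and 924 kb in KO. The other intervals with the most KO-only peaks were Cdh8 to Cdh11 with 42 (25.8% of its KO peaks), Tenm3 to Aga with 36 (23.1%), Lingo2 to 1700009N14Rik with 35 (24.5%) and Ncam2 to Mrpl39 with 32 (26.4%). Their het-only counts were 24, 15, 24 and 13 in the same order. From Cdh8 to Cdh11 and from Lingo2 to 1700009N14Rik the KO-only peaks per het-only peak were thus fewer than the 2.08 of the whole list. The intervals Cntnap5b to Cdh20 and Lrrc4c to Iftap held 31 and 29 het-only peaks and 23 and 21 KO-only peaks, and their KO-only shares of 10.7% and 15.8% were below that of all autosomal peaks. By window, 2 with many KO-only peaks lay at Mtus2 on chromosome 5 with 22 of 54 KO peaks, and in the Klra cluster of natural killer cell receptors on chromosome 6 with 21 of 65, against a median of 4 of 21.

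Genotype-specific positions were called at later stages less often than shared ones, and about equally often in either genotype. Any of the 6 later lists called 71.0% of het-only (69.8 to 72.1%) and 69.6% of KO-only positions (68.8 to 70.4%), against 94.9% and 95.03% of shared ones. Among peaks of 1001 bp the values were 66.4% and 66.0% against 85.3% and 85.7%. At E16.5 both lists called 50.9% of het-only and 49.7% of KO-only positions. Neither list called 39.2% and 41.0% of them at E16.5, 44.0% and 44.5% at P0, and 48.4% and 50.8% at P3.

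The genotype in which a position had been called at E13.5 did not carry over. Het-only positions were called in het alone at E16.5 for 6.07% (5.48 to 6.72%) and in KO alone for 3.89% (3.42 to 4.43%). KO-only positions showed the same order, 6.48% in het alone (6.06 to 6.94%) and 2.83% in KO alone (2.55 to 3.14%). At P0 the order was the opposite for both, 6.19% and 8.30% for het-only and 5.86% and 8.87% for KO-only positions. At P3 it was 7.23% and 9.23% for het-only and 6.26% and 8.96% for KO-only positions.

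**Figure D5:**
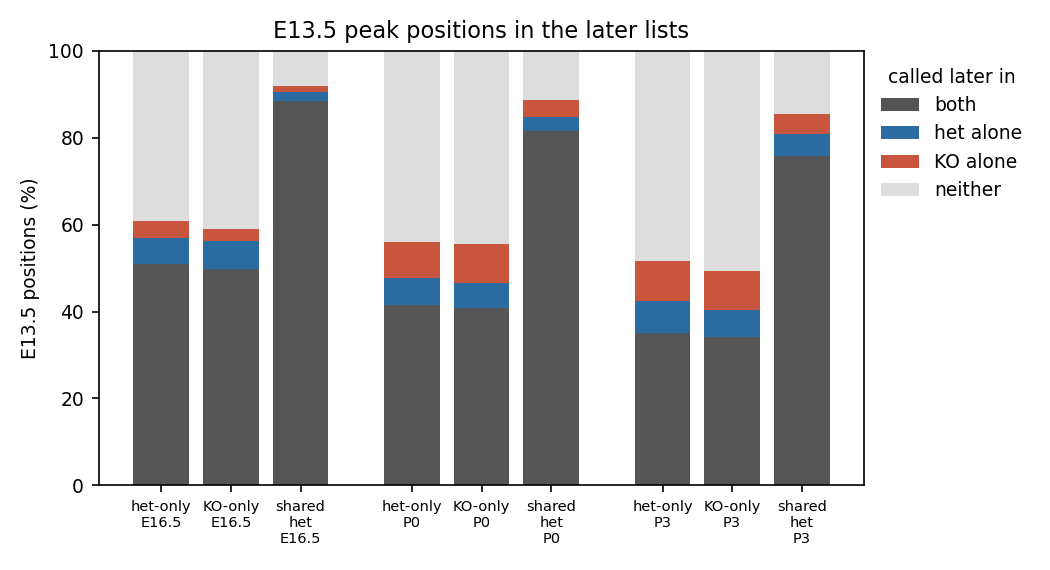
Fate of E13.5 positions in the later lists (y axis, percent of the positions), for het-only, KO-only and shared het peaks at E16.5, P0 and P3 (x axis); the stacked parts are positions called in both later lists, in het alone, in KO alone or in neither. Het-only and KO-only columns look alike at each stage, with 50.9% and 49.7% called in both lists at E16.5, against 88.5% of shared peaks.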

How the data were processed

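H3K9me3 ChIP-seq peak lists of Morc1 +/- and Morc1 -/- male germ cells were compared. The deposited lists hold 3 columns, the chromosome, start and end of each peak in bp, which have no other unit or normalization. The submitters' processing notes name mm10, bcl2fastq 2.20, cutadapt 1.18, Bowtie2 2.3.4.1, deepTools 3.5.0 and HOMER 4.10 without roles. Peak-calling settings, the use of the H3 samples and the pooling of replicates are not given in the sources used here. Depth is unknown, and peak number and length depend on it and on the threshold.

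Each list was taken as 1 pooled call set of its genotype and stage. Overlaps, gaps and coverage were computed with Python 3.11.15, pandas 2.3.3 and numpy 2.4.6 and tested on simulated data. X, Y and mitochondrial peaks were left out. Genes came from the RefSeq table (GRCm38.p6). A peak belonged to a gene when its midpoint lay in it. The 2 list members that matched no gene were left out. Members, gene lists and tests were chosen with earlier results of these data known. Genes were named by a rule: Morc1, the 5 longest and 3 farthest peaks, the 10 genes and 3 windows with most peaks, up to 6 list members, and up to 5 promoters per direction. Names outside it were chosen after their values were seen. Alternatives changed the overlap rule, list size, peak length, distances and gene definition.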

Additional observations from a re-analysis of the deposited data

How the results depend on the processing

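With 1 list per group, no replicate could be left out, and differences between the lists carry no replicate error. Depth is unknown, so neither depth nor the calling threshold could be held equal. No paired analysis was possible because each genotype and stage has a single list that carries no replicate number. Of 88 recomputed values over 13 alternatives, 38 stayed within the counting interval of the reported value, or within 1.5 times for counts of genes, and 50 moved. The KO-only share was above the het-only share in 6 of 6 settings, and the cause of the other shifts was not tested. All values below give het-only first and KO-only next.

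Counting a peak as shared only when at least 50% of it was covered gave shares of 13.6% and 26.1%, peaks of the shortest length 64.4% and 49.6%, peaks in genes 33.6% and 33.4% and positions called later 74.0% and 73.2%. Also counting peaks within 1 kb of the other list as shared gave shares of 10.6% and 20.8%, and 36.4% of het-only peaks near a shared peak. Equal peak numbers gave shares of 15.0% and 17.4%, shortest peaks 70.3% and 44.2%, called later 74.7% and 71.1%, and 35.9% of KO-only peaks near a shared peak. Without the shortest peaks the shares were 7.80% and 20.5%, near a shared peak 34.0% and 30.7%, in genes 33.4% and 34.1%, called later 85.5% and 80.3%, and 886 genes held a het-only peak. The longer 50% of each list gave shares of 10.1% and 20.1%, near a shared peak 24.5% and 26.7%, in genes 27.4% and 28.5%, called later 96.0% and 90.6%, and 632 and 1344 genes. With the X chromosome 34.4% of KO-only peaks lay in genes. Within 5 kb of a shared peak were 20.6% and 20.5%, and within 50 kb 81.6% and 81.7%. Counting all genes of the table put 43.7% and 44.8% in genes, and adding 5 kb on each side 41.0% and 42.7%. Requiring 50% of the position to be covered later gave 68.4% and 67.2%. Among peaks of 1001 bp alone, an alternative chosen after seeing the data, 66.4% and 66.0% were called later.

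With equal peak numbers or without the shortest peaks, also chosen after seeing the data, the Hox clusters held 5 and 3 het-only peaks, and promoter windows touched were 87 and 214 or 44 and 217.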
